A study of Mus musculus with 14 samples.

Results

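CTCF binding was followed through differentiation in mouse cells that carry the CTCF-K20R mutation, by comparing stem cells at day 0 with embryoid bodies (EBs) at day 4. Peaks of the 2 day 0 and the 2 day 4 K20R lists that overlapped by at least 1 bp were merged into 59991 sites, beside 86652 sites over all 8 CTCF lists of the series. A site was called lost when both day 0 lists and neither day 4 list held it, gained when the reverse was true, and kept when all 4 lists held it. The 4 K20R lists gave 4309 lost, 461 gained and 37860 kept sites, and 17361 sites fell in no class because the replicates of a day differed. Since a site needed a call in every list of a day, lost and gained sites carry no test.

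The cells were E14Tg2A embryonic stem cells, a mouse male line, in which CRISPR/Cas9 had changed lysine 20 of CTCF to arginine (K20R) or which were left wild-type (WT). Day 0 cells grew on mitotically inactive mouse embryo fibroblasts with serum, leukemia inhibitory factor (LIF) and the 2i inhibitors, and day 4 EBs were made by the hanging-drop method in serum without LIF, so medium, feeder cells and time differ between the days for both genotypes. Each of the 4 groups had 2 CTCF ChIP-seq libraries, and H3K27ac, a histone mark of active promoters and enhancers, had 1 library per genotype at day 4. The labels do not give the number of K20R clones, so genotype and clone cannot be told apart, and an EB holds several cell types, so fewer cells bound and weaker binding per cell cannot be told apart either. The question put to the lists was how CTCF binding moves when cells that lack the acetylatable lysine leave the stem cell state.

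CTCF is a zinc finger protein that binds a long, partly CpG-containing motif and halts cohesin, and thereby marks the ends of chromatin loops. Most of its sites are shared between tissues, while weaker sites and sites with a CpG that can be methylated vary more between cell types. In the mouse genome many CTCF motifs lie in copies of transposable elements, above all in short interspersed B2 elements.

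The motif learned from the 1000 strongest kept sites was 19 bp wide. Its letters with a share of at least 50% read NGGCCACCAGGGGGCGCNN, where N marks a position without such a letter, and positions are counted from 1 at its left end. The sequences below are the best matches, at a score passed by 5% of shifted sequences, at sites that the results turn on. They are shown to let the matches of lost, gained and re-ranked sites be compared base by base, and they come from the GRCm38 reference, which is the same build as mm10. Coordinates are those of the match, each sequence runs 5′ to 3′ on the stated strand, and capitals mark CpG dinucleotides. The first 6 belong to lost sites and the next 5 to gained sites.
Plag1 intron, chr4:3916630-3916648, plus strand: ctgccaCGaggtggtgctg
Cacna1a intron, chr8:84567849-84567867, minus strand: cccccaCGCGggggcactg
Between genes near Gm12285, chr11:63217244-63217262, minus strand: tcaccaCGtggtggCGctg
Ighv1-67 promoter, chr12:115605162-115605180, minus strand: gaaccagcagggggcacaa
Myh10 intron, chr11:68751107-68751125, plus strand: tgaCGtggaggtggCGctg
Ank2 intron, chr3:127453932-127453950, plus strand: ctgccacaagatggcacta
Syt7 promoter, chr19:10392161-10392179, plus strand: aggcctgcaggggtcagCG
Ldb2 exon, chr5:44476550-44476568, plus strand: tggccagaaggggtcactg
Ciita and Dexi intron, chr16:10518166-10518184, minus strand: taacctcctgggggCGcca
Lrp1 promoter, chr10:127622246-127622264, minus strand: CGcccacaagagggcagtg
Fblim1 promoter, chr4:141595749-141595767, minus strand: tggccaccaggaggagcca
The next 4 belong to sites that ranked higher at day 4 and the last 4 to sites that ranked lower.
Trp73 intron, chr4:154071018-154071036, plus strand: tccccagaaggtggcactg
Rrs1 promoter, chr1:9545334-9545352, minus strand: agacCGgcagagggCGgca
Rad51b intron, chr12:79612861-79612879, plus strand: tgaaCGctaggtggcaggg
G6pdx and Ikbkg intron, chrX:74413526-74413544, minus strand: gatccacaaggtggcagtg
Near Pdp2, chr8:104577804-104577822, plus strand: aggccagcagggggCGgca
Adap1 intron, chr5:139283979-139283997, minus strand: aggcctgaagagggCGcca
Near Slc1a3, chr15:8805733-8805751, plus strand: acaccaggagagggcacca
4930512J16Rik promoter, chr6:89283251-89283269, plus strand: aggccagaagagggCGtca
The matches at Adap1, Slc1a3 and 4930512J16Rik lie in sequence that the reference masks as repetitive, and the other printed matches do not.

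The day 0 lists held 52076 and 51905 peaks and the day 4 lists 41360 and 47463 peaks. The mean was 51990.5 ± 121 peaks (SD, n = 2) at day 0 and 44411.5 ± 4315 peaks (SD, n = 2) at day 4, a difference of -7579 peaks. A two-sided exact permutation test of 2 against 2 lists gave p = 0.333, the smallest p this design allows. The first day 4 list stood apart from the other 3, with a median fold enrichment of 14.8 against 17.8 to 18.8 and a highest value of 93.4 against 210 to 262. Ranks of kept sites correlated at 0.96 between the day 0 lists, at 0.927 between the day 4 lists and at 0.828 to 0.856 between days, as a description over 37860 sites. Depth per site is unknown, since the lists hold no reads.

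Of the 47073 sites held by both day 0 lists, 4309 were lost (9.15%), and of the 39107 sites held by both day 4 lists, 461 were gained (1.18%). These shares are the background for every count of lost or gained sites that follows. A further 908 sites of both day 0 lists were held by the first day 4 list alone and 3996 by the second alone, so that the shorter list set most of the incomplete losses. When all 4 lists were limited to the 41360 peaks with the highest −log10 p, 1550 sites were lost and 1254 gained, so the excess of losses moved with the length of the lists. Without the first or second day 0 list 7533 and 7694 sites were lost and 857 and 848 gained. Without the first day 4 list 5217 sites were lost and 3066 gained, and without the second 8320 were lost and 1068 gained, where a class needs fewer calls by construction. In WT, by the same rule, 2926 of 50940 sites were lost (5.74%) and 2105 of 55232 gained (3.81%). The WT lists held 77657 and 52698 peaks at day 0 and 61088 and 61436 at day 4. They were not limited to equal length, so the WT shares are not on one scale with those of K20R.

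Lost sites were weak sites. A site near the calling threshold drops out of a list more easily, so a lean of losses to weak sites is partly built into the rule. Within day 0 as well, 6551 sites were held by 1 list alone and by no day 4 list. Strength is given here as the percentile of a site's fold enrichment within its list. The median lost site stood at percentile 16.7 in both day 0 lists, with a fold enrichment of 6.75 and 6.63, whereas the median kept site stood at 63.6 and 63.4. Gained sites were as weak on the other side, with median percentiles of 10.0 and 15.3 in the day 4 lists. Of the weakest day 0 sites, with a mean percentile under 10, 53.6% were lost (95% Wilson interval 51.4 to 55.8). The share was 21.2% at percentiles 20 to 30 and 0.453% at percentiles 50 to 60, and only 30 of 25912 sites above percentile 50 were lost.

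The presence and the origin of the motif moved with the outcome. A motif match was found at 74.6% of lost sites (73.3 to 75.9), 74.8% of gained sites (70.7 to 78.6) and 91.2% of kept sites (90.9 to 91.5). The motif was learned from strong kept sites, so a higher share at kept sites is partly built in. Among the matches, 61.2% lay in repeat-masked sequence at lost sites (59.5 to 62.9), against 31.3% at gained (26.6 to 36.4) and 30.5% at kept sites (30 to 31). These intervals reflect the counting of sites alone, not the spread between libraries. The 12 letters at motif positions 4 to 15 that were most common among masked matches were CCAGAAGAGGGC, which stood at 11545 sites of all classes, 99.8% of them masked. This single form made up 40.4% of the matches at lost sites and 17.5% of those at kept sites. WT gave a like picture, with 62% of matches masked at lost (59.8 to 64.1), 24.9% at gained and 31.4% at kept sites. The 12-letter form made up 40.2% of the matches at WT lost sites and 18% of those at WT kept sites. The masking of the reference does not name the repeat family.

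Read from the side of the sequence, 15.2% of sites with this 12-letter form were lost (14.5 to 16), 11.3% of those with another masked match (10.5 to 12.1), 4.6% of those with a match outside masked sequence (4.36 to 4.86) and 19.8% of those with no match (18.7 to 20.8). Of sites under percentile 10 at day 0, 52.6% without a match (48.3 to 56.8) and 54% with one (51.4 to 56.5) were lost. Between 20 and 30 these shares were 26.8% (24.1 to 29.7) and 19.8% (18.5 to 21.1). The difference between masked and other matches held at equal day 0 strength for the weaker sites. Under percentile 10, 62.9% of masked and 41.7% of other matches were lost, and between 20 and 30 the shares were 23.1% and 16.6%. Between 50 and 60 the order was not seen, with 0.174% (0.0593 to 0.511) and 0.462% (0.275 to 0.774). Reads from repeat copies are more often dropped by a filter on mapping quality, and the part of that filter in these shares was not tested.

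**Figure D1:**
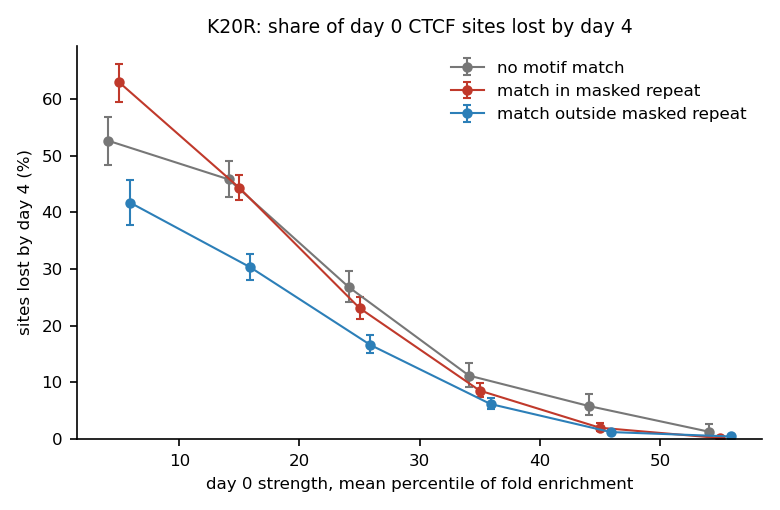
Share of K20R day 0 CTCF sites that were lost by day 4 (y axis, percent) against their mean percentile of fold enrichment over the 2 day 0 lists (x axis, classes of 10 points), for sites with no motif match, with a match in repeat-masked sequence and with a match elsewhere. Bars are 95% Wilson intervals, and points are shifted sideways for clarity. Masked matches lie above unmasked matches up to percentile 50, from 62.9% against 41.7% at the weak end to 2% against 1.24%, where the intervals overlap. Sites with no match lie above masked matches from percentile 10 on, with 45.8% against 44.3% at 10 to 20 (overlapping intervals) and 5.82% against 2% at 40 to 50.

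The bases of the matches also differed between classes, shown here for positions 17 and 7 of the 19, without holding strength or masking equal. At position 17, T stood at 46.3% of matches of lost sites, 20.3% of sites lower at day 4, 19.3% of kept sites that were not called and 7.38% of sites higher at day 4. At position 7, the corresponding shares of G were 74.9%, 56.7%, 54.4% and 42.1%. The order ran from lost through lower and uncalled to higher sites at both positions, and gained sites had 21.4% T at position 17.

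CpG dinucleotides in the match, the places where DNA methylation can meet CTCF, were less common at lost than at kept sites, with 37.4% (35.8 to 39.1) against 47.6% (47 to 48.1). Lost sites were weaker, however, and matches of weaker sites hold fewer CpGs. With strength held between percentiles 20 and 50, sites with a CpG at motif positions 5 and 6 were lost more often, 76 of 555 (13.7%, 11.1 to 16.8), than matches without it, 1055 of 11906 (8.86%, 8.36 to 9.38). The same held above percentile 50, where 8 of 1816 (0.441%, 0.223 to 0.867) and 13 of 22420 (0.058%, 0.0339 to 0.0992) were lost. Within this range the shares overlapped at percentiles 20 to 30, with 21.8% (16.5 to 28.2) and 19.7% (18.4 to 21), and the intervals lay apart at 30 to 40, with 13.5% (9.23 to 19.3) and 6.99% (6.25 to 7.82). At percentiles 10 to 20 the shares were 32.7% (26.1 to 40.2) and 38.1% (36.5 to 39.8), and under percentile 10 the order was the opposite, with 32.9% (23.9 to 43.5) and 55.3% (52.6 to 57.9). Under percentile 10, 77 of the 85 matches with the CpG were unmasked. Among unmasked matches alone the shares there were 31.2% (21.9 to 42.2) and 43.2% (39.1 to 47.5), with overlapping intervals. At percentiles 10 to 20 they were 28.2% (21.7 to 35.7) and 30.6% (28.2 to 33), and at 30 to 40 12.2% (8.13 to 17.9) and 5.68% (4.77 to 6.75). Without the second day 4 list the shares of all matches between percentiles 20 and 50, with and without the CpG, were 30.5% and 22.9%.

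WT lists gave a like picture at these positions, with 14.6% (12 to 17.5) and 8.45% (7.97 to 8.95) of sites lost between percentiles 20 and 50. The second CpG position of the motif, 15 and 16, showed no such order in K20R, where 8.07% (7.24 to 8.99) of sites with the CpG and 9.51% (8.91 to 10.1) of those without were lost. DNA methylation was not measured in these samples.

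**Figure D2:**
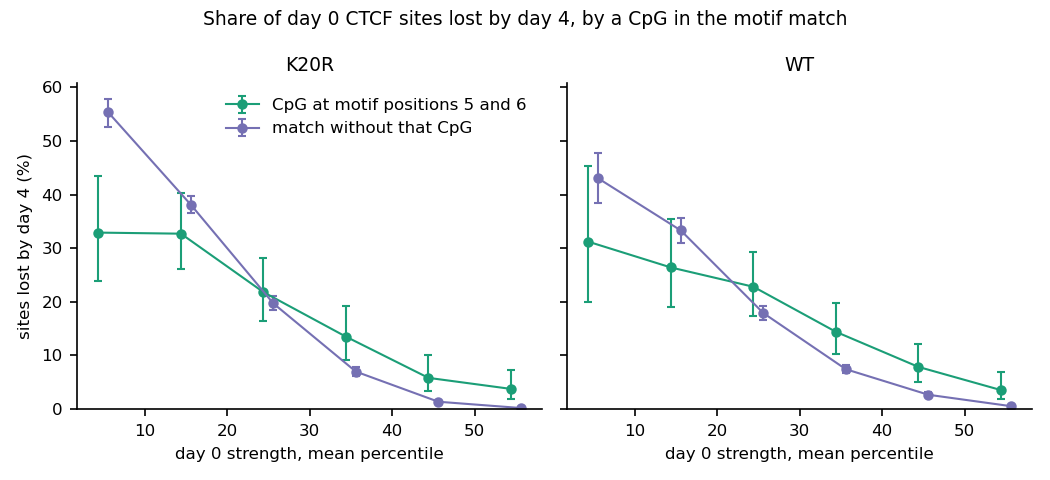
Share of day 0 CTCF sites lost by day 4 (y axis, percent) against mean day 0 percentile (x axis, classes of 10 points) for motif matches with and without a CpG at positions 5 and 6, in K20R (left) and WT (right). Bars are 95% Wilson intervals, and the lines cross: in K20R matches with the CpG were lost less often under percentile 10 (32.9% against 55.3%) and more often between 40 and 50 (5.82% against 1.37%). Among unmasked K20R matches alone, not drawn here, the shares under percentile 10 were 31.2% and 43.2%, with overlapping intervals.

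Gained sites lay closer to genes. Within 3 kb of an annotated start site lay 36.7% of gained sites (32.4 to 41.2), 22.8% of kept sites (22.4 to 23.3) and 18.3% of lost sites (17.2 to 19.5). Without the second day 4 list the order of lost and kept sites turned, with 23.8% of lost and 22.6% of kept sites. H3K27ac peaks of K20R EBs overlapped 19.3% of gained sites (16 to 23.2), 14.7% of kept sites (14.4 to 15.1) and 10.6% of lost sites (9.7 to 11.5). The H3K27ac value of each genotype rests on 1 library with no replicate check, and day 0 was not measured. Without the first day 4 CTCF list the gained share was 31.6%.

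Of the kept sites, both WT day 4 lists held 98.5% and both WT day 0 lists 97.5%. Of the 461 gained sites, 398 (86.3%) were held by both WT day 4 lists and 213 (46.2%) by both WT day 0 lists, and 36 (7.81%) were gained in WT by the same rule. Taken singly, the WT day 0 lists held 87.2% and 47.3% of the gained sites and the WT day 4 lists 89.8% and 90.2%. The low share for both WT day 0 lists thus came from the second of them. Of the 4309 lost sites, the WT day 0 lists held 96.3% and 63.8%, and the WT day 4 lists held 58% and 59.4%, against 99.1% of kept sites in each WT day 4 list. Both WT day 0 lists held 2726 of the lost sites, which alone could be lost in WT by the rule, and 649 of the 4309 (15.1%) were, against 0.256% of kept sites. Whether the genotypes differ in the loss of a site cannot be tested with calls from 2 lists each.

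Strong sites among the lost were few, and the 12 strongest are named here by rule. At the top stood a site in an intron of 0610040J01Rik, chr5:63874868-63875267, with a fold enrichment of 32.5 and 28.6 in the day 0 lists (percentiles 71.3 and 67.4) and no peak in either day 4 list. A site in an intron of Plag1, a zinc finger transcription factor, followed with 23.8 and 30.2 (percentiles 59.4 and 69.7). In WT the Plag1 site was called in all 4 lists, at percentiles 89.3 and 63.3 on day 0 and 51.4 and 30.1 on day 4. An intronic site of Cacna1a, which encodes a pore subunit of voltage-gated calcium channels, had 24.6 in both day 0 lists and no peak in either WT day 4 list.

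An exonic site of Npat, chr9:53570633-53570995, which encodes a coactivator of replication-dependent histone genes, had fold enrichments of 27.3 and 21.8 and lacked a peak in both WT day 4 lists too. The site in an exon of Vps16, 7.9 kb from the start of Ptpra, had 19.7 and 29.2 and stayed called in all 4 WT lists, as did the sites in Myh10, a non-muscle myosin heavy chain, with 21.5 and 23.2, and in Ank2, the membrane adaptor ankyrin B, with 22.7 and 22.0. The others lay near Gm12285, at the promoters of Ighv1-67 and Gm23745, near Cbln1 and near Gstp2. Of the 12, 9 held a motif match and none of these was masked, 7 were called in all 4 WT lists, and 3 in no WT day 4 list.

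The 12 strongest gained sites were all held by both WT day 4 lists. Of these, 9 were called in all 4 WT lists and only 1 in no WT day 0 list, so most were not gained in WT. The first, in Syt7 2.7 kb from its start, which encodes a calcium sensor of vesicle fusion, had a fold enrichment of 16.5 and 30.1 in the day 4 lists (percentiles 54.2 and 65.5). In WT it stood at percentiles 29.4 and 31.6 on day 0 and 94.5 and 89.0 on day 4. A site in an exon of Ldb2, a cofactor of LIM-domain transcription factors, had 10.8 and 14, and a site in overlapping introns of Ciita and Dexi had 9.02 and 17.8.

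Ciita is the master coactivator of MHC class II genes, and another of the 12 sites lay 11.6 kb from H2-DMb1, an MHC class II peptide loading gene, with 8.54 and 12.8. The remaining sites lay near or in Cdcp2, Fcho1, Ccdc42os, Zfp335, Zbtb48, Lrp1 and Fblim1 and between genes on chromosome 17, with first-list values of 7.33 to 10.2. Of the 12, 11 held a motif match, none masked, and 5 lay at promoters.

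The densest loss was on the X chromosome. Among 3129 windows of 500 kb with at least 5 sites of both day 0 lists, the window from 50500001 to 51000000 lost 14 of 22 sites (63.6%, against 9.15% over all sites). Firre, chrX:50555744-50635321 on the minus strand, encodes a long nuclear noncoding RNA, and its gene body is built of local repeats that bind CTCF. It was singled out after its window had been found by rule. Of its 18 sites, 16 were held by both day 0 lists, 12 of these were lost and 2 were kept.

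The 12 lost Firre sites stood at percentiles of 7.54 to 45.3 in the first and 16.7 to 58.6 in the second day 0 list. A kept site 74.2 kb into the gene stood at 27.6 and 37.8 on day 0 and 19.5 and 17.5 on day 4, and the other at 33.9 and 37.4 on day 0 and 14.2 and 33.4 on day 4. The site that spans the start of Firre, counted outside the 18 because its summit lies upstream, was kept, with percentiles of 26.3 and 35.8 on day 0 and 21.0 and 40.5 on day 4. In WT 11 of the 12 were held by both day 0 lists, 5 by both day 4 lists, and 3 by neither day 4 list. With other thresholds, list lengths or a list left out, 11 to 14 Firre sites were lost.

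Of the 12 lost sites 7 held a motif match, which are printed to show the repeats of the locus, with capitals for CpG as above.
Firre, chrX:50566541-50566559, minus strand: tgtcctcatggtggcagta
Firre, chrX:50602611-50602629, plus strand: atggcagaagatggCGgcc
Firre, chrX:50620148-50620166, minus strand: tggcCGCGtggtggcagta
The first of these was found at 4 of the 7 sites letter for letter and the second at 2. None of the 7 was masked in the reference. Near-identical copies share reads, and their part in the calls was not tested.

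**Figure D3:**
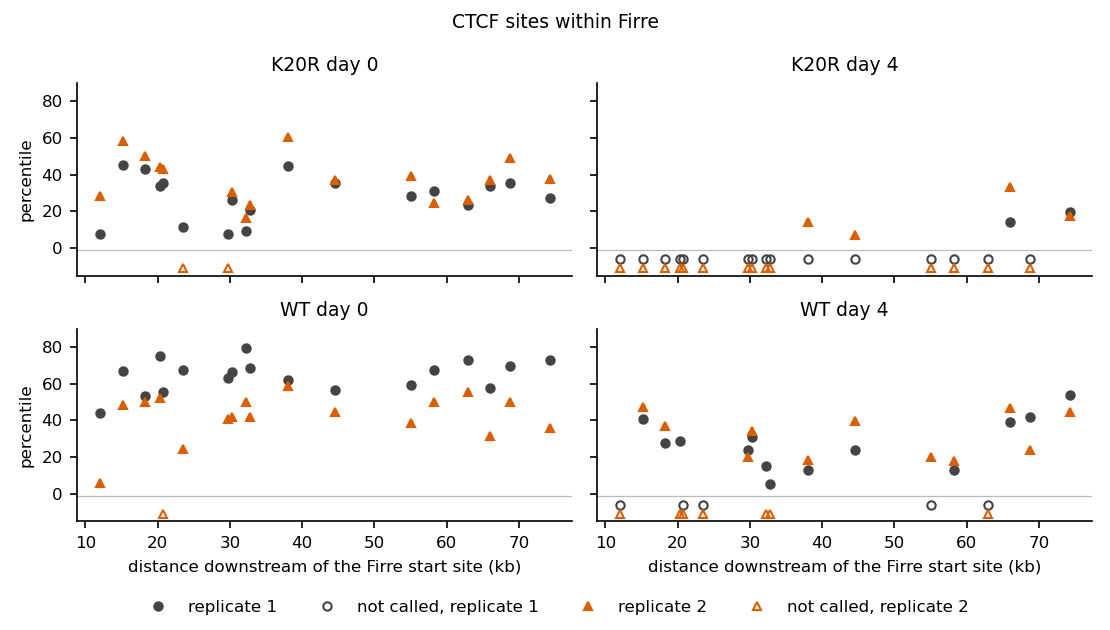
Percentile of fold enrichment (y axis) of the 18 CTCF sites within Firre against distance downstream of its start site (x axis, kb), in the 2 lists of each genotype and day; open symbols under the line mark sites that a list did not hold. In K20R 16 of the 18 sites were held by both day 0 lists and 2 by both day 4 lists, while in WT 17 and 10 were.

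Other windows were smaller. On chromosome 6, the window from 25500001 to 26000000 lost 3 of 5 sites, 2 of them in introns of Pot1a, a telomere protection gene, at day 0 percentiles of 50.1 and 50.3 and of 41.2 and 51.2. The window from 62500001 to 63000000 on chromosome X lost 6 of 12 sites around Tslrn1, a testis-specific long noncoding RNA, none with a motif match, at percentiles of 11.3 to 28.4 in the first and 15.0 to 34.1 in the second day 0 list. None of those 6 was held by the second WT day 0 list or by either WT day 4 list. The windows with the highest gained share held 3 gained of 11 sites, 2 of them in Ppp2r2b, a phosphatase regulatory subunit gene, and 2 of 8 on chromosome 3 from 94000001 to 94500000, against 1.18% over all sites.

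Sites that were kept changed in rank. On quantile normalised log2 fold enrichment, 3860 of 37860 kept sites ranked higher at day 4 (10.2%) and 3940 lower (10.4%) at a limma adjusted p under 0.05. The log2 change ran from 0.40 to 2.82 among the higher sites, with a median of 0.84, and from -2.64 to -0.38 among the lower sites, with a median of -0.84. Sites that rose had median percentiles of 61.1 and 61.8 at day 0 and 79.4 and 80.2 at day 4. Sites that fell started higher, at 82.9 in both day 0 lists, and stood at 50.4 and 59.3. Kept sites that were not called also moved down within their lists, from 60.9 and 60.7 to 50.7 and 57.1, so percentiles of lists of different length are not on one scale. The shares of 10.2% and 10.4% are the background for every count of higher or lower sites near the gene lists that follows.

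These counts rest on the day 0 replicates. Without the second day 0 list no site was called by limma, where 3823 higher and 3528 lower sites had an unadjusted p under 0.05, and without the first 1013 higher and 687 lower sites were called, each time with the lone library assumed to vary like the day 4 pair. The even split follows from quantile normalisation: median centring gave 56.4% higher among the calls, the logit of the percentile 24.5%, and the deposited values without scaling 2.48%, where the median of all sites lay at -0.32. Called sites therefore changed relative to the other kept sites, and no site called in the main test was called in the opposite direction in these 3 alternatives. The alternatives rescale the same lists, so the lack of opposite calls is no separate support. Of the higher calls, median centring kept 94.7%, the logit 38.3% and no scaling 0.881%. Of the lower calls they kept 78.9%, 96% and 32.3%.

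The 12 largest relative gains were named by rule. A site 5.7 kb from Nrarp, a feedback inhibitor of Notch signalling, had a fold enrichment of 4.11 and 5.4 at day 0 and 19.4 and 43.1 at day 4, a log2 change of 2.82 ± 0.30 (SE, limma adjusted p = 0.000126). The day groups did not overlap, which the choice of the largest changes favours, and the site overlapped H3K27ac peaks of both genotypes. An intronic site of Trp73, which encodes the p53 relative p73, went from 6.54 and 8.19 to 17.1 and 43.1 (2.18 ± 0.29, adjusted p = 0.000278).

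A site in an intron of Rad51b, a recombination repair gene, was the strongest of the 12 at day 4, with 18 and 18.4 at day 0 and 42.1 and 60.8 at day 4 (1.80 ± 0.19, limma adjusted p = 0.000126). The promoter site of Rrs1, 79 bp from the start of this ribosome biogenesis gene, carried a CpG at both motif positions and went from 7.04 and 6.46 to 15.4 and 23.9 (1.83 ± 0.29, adjusted p = 0.00061). The rest lay near Prodh, Ptma, Gm12411 and Gm19619 and in G6pdx and Ikbkg, Rhag, Pax6os1 and Atp5s. None of the 10 matches at the 12 sites was masked.

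The largest relative losses began with a site 13.6 kb from Pdp2, a phosphatase that activates pyruvate dehydrogenase. It had a fold enrichment of 42.3 and 32.3 at day 0 and 4.6 and 5.14 at day 4, a log2 change of -2.64 ± 0.28 (SE, limma adjusted p = 0.000126). Its match is the closest of the printed lower sites to the consensus, with a score of 22.8. A site in an intron of Adap1 went from 29.0 and 23.4 to 3.21 and 5.87 (-2.37 ± 0.33, adjusted p = 0.0003).

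A site 95 kb from Slc1a3, a glutamate transporter gene, had 20.3 and 21.1 at day 0 and 3.28 and 4.5 at day 4 (-2.16 ± 0.31, limma adjusted p = 0.000367). In an exon of Pygo1, a Wnt pathway coactivator, within its untranslated region, a site had 26.5 and 24.2 at day 0 and 4.38 and 6.46 at day 4. The other sites lay near Mbp, Cdsn, Mb, Epha5 and Msc and in 4930512J16Rik, Apc and Ttc28. Of the 10 matches at the 12 sites, 5 were masked, and all 12 sites were held by all 4 WT lists.

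Over the 36440 sites held by all 8 lists, the change with differentiation in K20R lay above that in WT at 2923 sites (8.02%) and below it at 3173 (8.71%), by limma's test of the day by genotype term at an adjusted p under 0.05. Both directions together came to 6096 sites, and to 2401 without the first and 2468 without the second K20R day 0 list. Leaving out a day 4 list gave 3306 to 3780 sites.

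Repeat-derived matches also stood lower among kept sites. Of sites with the 12-letter form, 4.06% ranked higher at day 4 (3.59 to 4.59), against 12.9% of sites with an unmasked match (12.4 to 13.3), while 10.7% and 9.92% ranked lower. The median log2 change was -0.11 for 10545 masked matches and 0.05 for 23993 others. In each of 5 classes of day 0 strength the masked matches had the lower median change, from 0.09 against 0.32 in the weakest class to -0.30 against -0.14 in the strongest. WT kept sites gave -0.17 and 0.07.

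Chromosome X stood apart from the autosomes. The median log2 change of its 949 kept sites was 0.15, whereas the autosomes lay between -0.065 and 0.044. Chromosome Y, with 8 kept sites, had 0.321. The median log2 level at day 0 was 3.8 on X and on Y, against 4.31 to 4.71 on the autosomes. Motif matches of weaker classes had the higher median change, and the part of day 0 strength in the X difference was not tested. Of these sites 58 (6.11%) ranked higher and 17 (1.79%) lower, against 10.2% and 10.4% over all kept sites, so both called shares were small and the shift was spread over sites that were not called. Over 850 chromosome X sites held by all 8 lists, the median percentile was 29.7 and 28.9 at K20R day 0 and 34.9 and 34.0 at day 4. In WT it was 22.1 and 21.7 at day 0 and 26.7 and 27.3 at day 4. The difference between chromosome X and the others was 0.10 to 0.23 in every alternative of scaling and with any library left out. Of the chromosomes, 16 had the highest share of lost sites (12.3%) and 7 the lowest among the autosomes (7.63%).

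**Figure D4:**
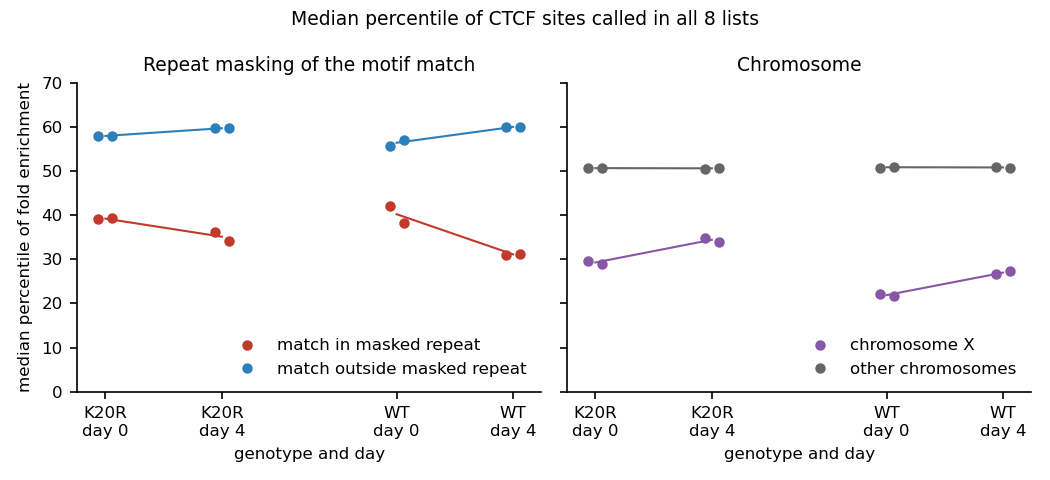
Median percentile of fold enrichment (y axis) over sites held by all 8 lists, ranked within each list, for motif matches in and outside repeat-masked sequence (left) and for chromosome X and the other chromosomes (right), by genotype and day (x axis); points are libraries and lines join the means. Masked matches stood at 39.2 and 39.3 on K20R day 0 and 36.1 and 34.2 on day 4, and chromosome X sites at 29.7 and 28.9 and then 34.9 and 34.0.

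Sites within 50 kb of the start of naive pluripotency genes, which maintain the stem cell state and are shut down on differentiation, were lost at 13 of 85 (15.3%, against 9.15% over all sites). When the lists had equal length 6 of 73 were lost, against 4.01% over all sites, and without the first day 0 list 23 of 98, against 14.6%. Without the second day 4 list 18 of 85 were lost, against 17.6%. The lost sites lay near Pou5f1 (3), Dppa3 (2), Esrrb (2), Prdm14, Sox2, Fgf4, Zfp42, Klf2 and Klf5, and 7 of the 13 were at or under percentile 25 in both day 0 lists. The strongest was the intronic Esrrb site 14.3 kb from the start of this orphan nuclear receptor gene, at percentiles 32.2 and 43.2.

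Of the 65 kept sites near these genes, 6 ranked higher and 7 lower. A site 37.9 kb from Nanog, a core homeobox factor of pluripotency, was among the strongest on both days, at percentiles 95.9 and 97.4 and then 99.9 and 99.7 (log2 change 0.73 ± 0.14, limma adjusted p = 0.00247). All 3 called sites of Tbx3 fell, of which the site at its start stood at percentiles 69.8 and 56.9 on day 0 and 30.6 and 31.5 on day 4 (-1.01 ± 0.28, adjusted p = 0.0164). A site 45.8 kb from Klf2 fell by 1.60 ± 0.28 on the log2 scale (adjusted p = 0.00128). Sox2, Klf4 and Esrrb had 1 site each that rose, by 0.64, 0.67 and 0.56.

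Primitive streak and mesoderm genes, which are switched on as EBs form germ layers, lost 4 of 90 sites (4.44%) and gained 3, and of 78 kept sites 8 ranked higher (10.3%, against 10.2% over all kept sites) and 10 lower (12.8%, against 10.4%). The promoter site of Mesp1, which commits cells to cardiac mesoderm, stood at percentiles 97.5 and 97.8 on day 0 and 76.6 and 78.3 on day 4 (-0.91 ± 0.15, limma adjusted p = 0.000842). A site 15.9 kb from Eomes, a T-box regulator of mesoderm, went from 73.5 and 85.8 to 28.8 and 37.3 (-1.57 ± 0.24, adjusted p = 0.000492). In the other direction, the Pdgfra promoter site went from 53.5 and 50.6 to 74.5 and 79.5 (1.16 ± 0.20, adjusted p = 0.00122).

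At Wnt3, a ligand needed to form the primitive streak, a site 10.2 kb from the start rose by 1.38 ± 0.20 and another at 15.2 kb changed by -0.71 ± 0.15 (limma adjusted p = 0.000413 and 0.00439). The first was the weaker at day 0, with log2 levels of 4.16 and 6.11, and the levels at day 4 were 5.53 and 5.40. The lost sites of this list lay 9.8 kb from the start of T, 19.9 kb from Eomes, 6.7 kb from Tbx6 and 3.9 kb from Pdgfra. The gained sites lay near Tbx6 (2) and at Lhx1. Mesp1 also had a site at 7.3 kb that ranked higher and another at 27.6 kb that ranked lower. Near Cdx2 2 sites ranked lower, 1 of them from percentile 97.3 in both day 0 lists to 61.6 and 77.6. Sites near Nodal and Gsc and 2 sites near Wnt3a ranked lower too. In the other direction, sites near Cdx1, Fgf8, Msgn1 and Wnt3a and a further site near Pdgfra ranked higher.

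Cardiac genes lost 3 of 45 sites (6.67%), near Actc1 (2) and Smarcd3, and of 37 kept sites 5 ranked higher and 4 lower. At Gata6, an endoderm and heart transcription factor, the site 64 bp from the start went from percentiles 28.4 and 27.8 to 49.8 and 46.5 (1.18 ± 0.29, limma adjusted p = 0.00902). Near Nkx2-5, a cardiac homeobox gene, a site at 44.7 kb rose by 0.61 and one at 37.8 kb fell by 0.65 on the log2 scale. Both called sites within Smarcd3, which encodes the BAF60c subunit of chromatin remodelling complexes, ranked lower, by -0.87 and -0.67. Sites near Tnnt2, Hand1 and Hand2 ranked higher, and a site near Myh6 ranked lower.

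Formative and primed genes lost 3 of 30 sites, 2 of them near Dnmt3b and 1 near Dnmt3l, and of 23 kept sites 3 ranked higher and 2 lower. Neural genes lost 0 of 23 and gained 2, both near Nes, and of 23 kept sites 4 rose and 1 fell. Endoderm genes lost 0 of 15, and their 15 kept sites held the Foxa2 site 35.5 kb from its start, which went from percentiles 79.3 and 71.8 to 97.9 and 98.3 (1.21 ± 0.16, limma adjusted p = 0.00026). Hnf4a had 2 intronic sites that ranked lower and 1 site at 39.4 kb that ranked higher.

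Markers of fibroblasts, listed because the day 0 cells grew on feeders, had 23 sites near all 5 genes, of which 0 of 19 were lost and 6 of 18 kept sites ranked higher (33.3%, against 10.2% over all kept sites) and 1 lower. The higher sites lay near Col1a2 (2), Col1a1 (2), Thy1 and Twist2, and the Col1a2 promoter site stood at percentiles 49.6 and 47.1 on day 0 and 59.9 and 66.4 on day 4. Peak lists give no transcript level, so the share of feeder cells was not tested.

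CTCF and cohesin genes lost 6 of 51 sites (11.8%), near Ctcfl, Pds5a, Pds5b, Rad21, Smc3 and Stag2. Imprinted genes lost 1 of 90 (1.11%), near Gnas, and of 79 kept sites 6 ranked higher and 6 lower. Near Igf2 sites at 5.5 kb and 9.0 kb rose by 0.95 and 1.21, and the Meg3 promoter site fell by 0.78 on the log2 scale. Germline genes lost 1 of 37, near Stk31, with 3 of 30 kept sites higher and 2 lower.

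None of the 38 day 0 sites of the 4 Hox clusters was lost. Hoxb, whose genes are opened in order along the body axis, had 5 of 16 kept sites higher (31.2%, against 10.2% over all kept sites) and 1 lower (6.25%, against 10.4%), led by a site 29.7 kb from Hoxb13 that went from percentiles 61.7 and 60.6 to 93.6 and 90.1 (1.34 ± 0.18, limma adjusted p = 0.00026). Hoxd had 2 higher and 1 lower of 10 kept sites. At Hoxd3, a promoter site went from 76.0 and 73.6 to 97.7 and 96.5 (1.13 ± 0.16, adjusted p = 0.000313), while an intronic site of Hoxd11 fell by 0.79 ± 0.18 (adjusted p = 0.00548). At Hoxc5 a promoter site rose by 1.38, the 1 call among 3 kept sites of Hoxc. Hoxa had 1 higher and 1 lower of 6 kept sites.

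Clustered protocadherins, whose alternative promoters each carry a CTCF site, lost 0 of 16 sites at Pcdha, 0 of 36 at Pcdhb and 2 of 28 at Pcdhg. Of the kept sites 2 ranked higher and 1 lower of 14 at Pcdha, 3 and 4 of 33 at Pcdhb, and 1 and 4 of 25 at Pcdhg. The shares of all these lists are descriptions beside the background and not tests of the lists.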

How the data were processed

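CTCF ChIP-seq peak lists of 4 K20R and 4 WT libraries and H3K27ac lists of 1 library per genotype were used; 4 input samples were not analysed here. The authors used Trim_Galore for trimming and bowtie2 for alignment (mm10), filtered on mapping quality, took out duplicates and blacklisted regions, subsampled CTCF libraries to one read number, and ran MACS2 on each library. Each deposited list holds, per peak, an integer score (not used), a ratio (fold enrichment over background at the summit), a −log10 p, a −log10 q and a summit. Which control library each list was called against is not given in the sources used here, so fold enrichments of different lists may rest on different controls. The study states that replicates are biological; p-values measure the spread between these libraries.

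Peaks were merged into sites when they overlapped by at least 1 bp. Coordinates are 1-based, and no peak ended past its chromosome in GRCm38. Each fold enrichment was turned into a percentile of its own list. Kept sites were tested on quantile normalised log2 fold enrichment with limma 3.58.1 (R 4.3.3), moderated with a trend, and Benjamini-Hochberg adjusted p under 0.05 over all kept sites; log2 here is an own transformation of the deposited ratio. The day by genotype term was tested over 36440 sites held by all 8 lists.

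The motif was learned from kept sites and scored within 100 bp of summits, with the threshold passed by 5% of sequences 1000 bp away. A match was called masked when most of its bases were in lower case in the reference. Gene models were those of GENCODE M21 (basic set), and gene lists took sites within 50 kb of a start site. Named sites were the 12 strongest lost and gained and the 12 largest changes in each direction among called sites, and the 5 windows of 500 kb with the highest shares. The members, lists and alternatives were chosen with earlier results of these data known. Python 3.11.15, pandas 2.3.3, scipy 1.17.1, pysam 0.24.0 and samtools 1.23.1 were used.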

Additional observations from a re-analysis of the deposited data

Results flagged for a closer look

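The change between day 0 and day 4 differed between K20R and WT at 6096 of 36440 sites held by all 8 lists, by limma's test of the day by genotype term at an adjusted p under 0.05. The K20R change lay above the WT change at 2923 sites (8.02%) and below it at 3173 (8.71%). The count was 2401 without the first and 2468 without the second K20R day 0 list, 3306 and 3780 without the first and second K20R day 4 lists, and 3679 and 3515 without the first and second WT day 4 lists. Genotype and clone cannot be told apart in this count.

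The named re-ranked sites were picked by their K20R change, which is part of the genotype difference. The direction of the difference at them is therefore largely built in. The term was called at 5 of the 11 tested higher sites and 2 of the 12 tested lower sites, beside 8.02% and 8.71% over all sites. Among the named sites that ranked higher at day 4, the difference of the K20R from the WT change was 1.47 on the log2 scale at the Trp73 site (limma adjusted p = 0.00887), where WT stood at percentiles 75.1 and 65.1 on day 0 and 76.7 and 83.7 on day 4. It was 1.1 at the Gm12411 promoter site (adjusted p = 0.0418), 1.49 at the site in G6pdx and Ikbkg (adjusted p = 0.0319) and 0.95 at the Rad51b site (adjusted p = 0.016). At these sites K20R had started lower than WT on day 0. The Atp5s site had the largest difference, 2.11 (adjusted p = 0.0018), with WT at 83.2 and 63.7 and then 54.8 and 63.4.

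Among the named sites that ranked lower, the difference was -2.27 at the site 95 kb from Slc1a3 (limma adjusted p = 0.00184), where WT stood at percentiles 49.4 and 22.6 on day 0 and 44.9 and 33.0 on day 4. It was -1.41 at the site 21.0 kb from Mb, the myoglobin gene (adjusted p = 0.00868), with WT at 82.8 and 80.5 and then 74.0 and 72.9.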

How the results depend on the processing

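Limiting the lists to equal length moved the losses to 1550 and the gains to 1254, the CpG share of lost sites to 39.4%, their H3K27ac share to 9.29% and their repeat-masked share to 53.3%. Leaving out a library gave 5217 to 8320 lost and 848 to 3066 gained sites. Re-ranked sites numbered 34 higher and 1338 lower with no scaling, 1274 and 1485 with log2 of −log10 p, 1990 and 1970 with all 8 libraries in the fit, and 1477 higher with the logit of the percentile (4549 lower). Leaving out a library gave 0 to 4643 higher and 0 to 5301 lower, the 0 without the second day 0 list, where limma called none of the 24 named re-ranked sites. The range over the 48 named sites was thus 24 to 48, of which 24 are lost and gained sites that cannot leave their class when a list is left out, so it says nothing about those. The genotype difference was called at 2401 to 8437 sites, and 6617 with a replicate block. The replicate block gave 4368 higher and 4466 lower sites; replicate numbers did not pair the samples (correlation of deviations -0.0316) and the block shared 3860 higher and 3938 lower calls with the fit without it.

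A motif threshold passed by 1% gave a motif share of lost sites of 32.9%, with 46% CpG and 64.9% masked, and a window of 50 bp gave 70.2%. Within 1 kb of a start site lay 7.57% of lost sites, and stricter H3K27ac peaks overlapped 4.39%. Leaving out a library gave lost shares of 70.5% to 76% for the motif, 17.4% to 23.8% for promoters, 10% to 13.4% for H3K27ac, 37.5% to 39.1% for CpG and 54.3% to 62% for masking. Without the second day 4 list the promoter share of lost sites (23.8%) lay above that of kept sites (22.6%), the opposite of the order with all lists. Losses outnumbered gains in each alternative run. With 2 lists per group and no reads, the depth behind a missing peak is unknown.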
